A study of Mus musculus with 120 samples.

Results

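The 9 genes described here are Stat3, Stat5a, Stat5b, Stat6, Cish, Socs1, Socs2, Socs3 and Pim1, taken by name from the 46078 gene identifiers of the count tables. They were chosen as transcription factors, target genes and feedback inhibitors of interleukin-2 (IL-2) signalling. All 9 are single, protein-coding entries of the mouse annotation (GRCm38). Their levels were followed in 120 single group 2 innate lymphoid cells (ILC2), with 60 cells for each of the 2 secreted cytokines used as an index, IL13 and IL5 (called IL13 cells and IL5 cells).

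The cells came from the pooled mesentery, a fat tissue, of wildtype C57BL/6 mice. Lineage-negative cells with c-Kit and Sca-1 on their surface were sorted (c-Kit+Sca-1+), and were kept in culture for months in medium that itself held IL-2, so every group, pre-stimulation cells included, had met IL-2 before. Stimulation was with IL-2 and IL-33, and secretion of the index cytokine was watched in each cell by live imaging. For each index there were 5 pre-stimulation cells (recovered before the stimulus), 11 cells each at 30, 60 and 90 min after the onset of secretion, 11 activated cells (secreting at a later common time) and 11 silent cells (not secreting at that time, under the same stimulus). No animal or separate culture is named for a cell, so each of these 12 groups is a single sample and no test between groups was possible. Differences are given as log2 ratios with 95% counting intervals, and p-values are given nowhere.

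IL-2 binds a receptor of alpha (Il2ra), beta and common gamma chains, and the kinases Jak1 and Jak3 bound to that receptor phosphorylate the STAT proteins, latent transcription factors of the cytoplasm. Stat5a and Stat5b are close paralogs and the main STATs used by IL-2 and IL-7, while Stat6 serves IL-4 and IL-13 and Stat3 serves IL-6, IL-10 and IL-21. Phosphorylated STAT5 dimers enter the nucleus and bind the palindrome TTCNNNGAA. Among their best known targets are Cish, Socs1, Socs2 and Socs3, whose SH2-domain proteins bind receptors or JAKs and dampen the same signal, and Pim1, a serine/threonine kinase that favours survival and growth. In ILC2, IL-2 and IL-7 support survival, and IL-33, which signals through another pathway (MyD88), drives secretion of type 2 cytokines.

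The unit used is CPM, a gene's counts per 1000000 reads assigned to genes. A group's level is the CPM of the summed reads of its cells, with an exact 95% Poisson interval in brackets. These intervals, like those of the ratios, cover counting error only, since reads without molecular identifiers are not independent molecules. Libraries were read from the 3′ end, so levels of different genes are not compared. Cells had a median of 254001 gene reads (65 to 785198). The 6 shallow cells (under 84667 reads) are kept in the sums but left out of the cell ranges, which therefore rest on 114 cells. The ILC2 markers (Gata3, Rora, Il1rl1, Il7r, Il2ra, Icos, Klrg1, Areg, Ly6a and Kit) summed to 5086 to 12781 CPM in the 12 groups. Markers of B cells, of NK cells and ILC1, and of adipose stroma were at 0 in all groups, and 8 T cell markers summed to 327 to 1884 CPM with Cd4 and Cd8a at 0. The 3 mast cell markers summed to 0 to 326 CPM (0 at 30 min in both indexes, 326 and 241 CPM at 90 min), with Mcpt4 at 0 in all groups and Cpa3 in all but 1, and the 4 myeloid markers were at 0 in all groups but the IL5 activated cells (38.3 CPM). The T cell sum was 1740 and 1884 CPM in the pre-stimulation cells, 694 and 639 CPM at 30 min, 804 and 1419 CPM at 60 min, 1499 and 477 CPM at 90 min, 515 and 327 CPM in activated and 1115 and 617 CPM in silent cells (IL13 and IL5). The 4 proliferation markers (Mki67, Top2a, Birc5 and Stmn1) summed to 2318 CPM in the pre-stimulation cells of the IL13 index, to 167 CPM in those of the IL5 index and to at most 47.6 CPM in any stimulated group. The proliferation and T cell sums thus move with every comparison against pre-stimulation cells and the mast cell sum, with the T cell sum of the IL13 index, with that of 90 against 30 min. The T cell sum was also lower in activated than in silent cells. In IL5 cells the mast cell sum was 233 CPM in activated and 0 in silent cells. The ILC2 sum was 10658 and 12010 CPM at 30 min and 5982 and 7551 CPM in activated cells (IL13 and IL5). The part of these sums in the comparisons was not tested. The 2 indexes were run on different title dates, and the pre-stimulation cells of an index all carry its first date, so index and date cannot be told apart. In sums over cells, fewer cells with a transcript and less transcript per cell cannot be told apart either, which is why the number of cells with a read is given beside each level.

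Of the 120 cells, Cish was read in 110, Pim1 in 71, Stat6 in 69, Socs1 in 67, Stat5a in 66, Stat3 in 57, Stat5b in 38, Socs2 in 38 and Socs3 in 2. A cell of normal depth held reads of 1 to 9 of the 9 genes, and the group medians ran from 3 to 5.5 genes.

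**Figure D1:**
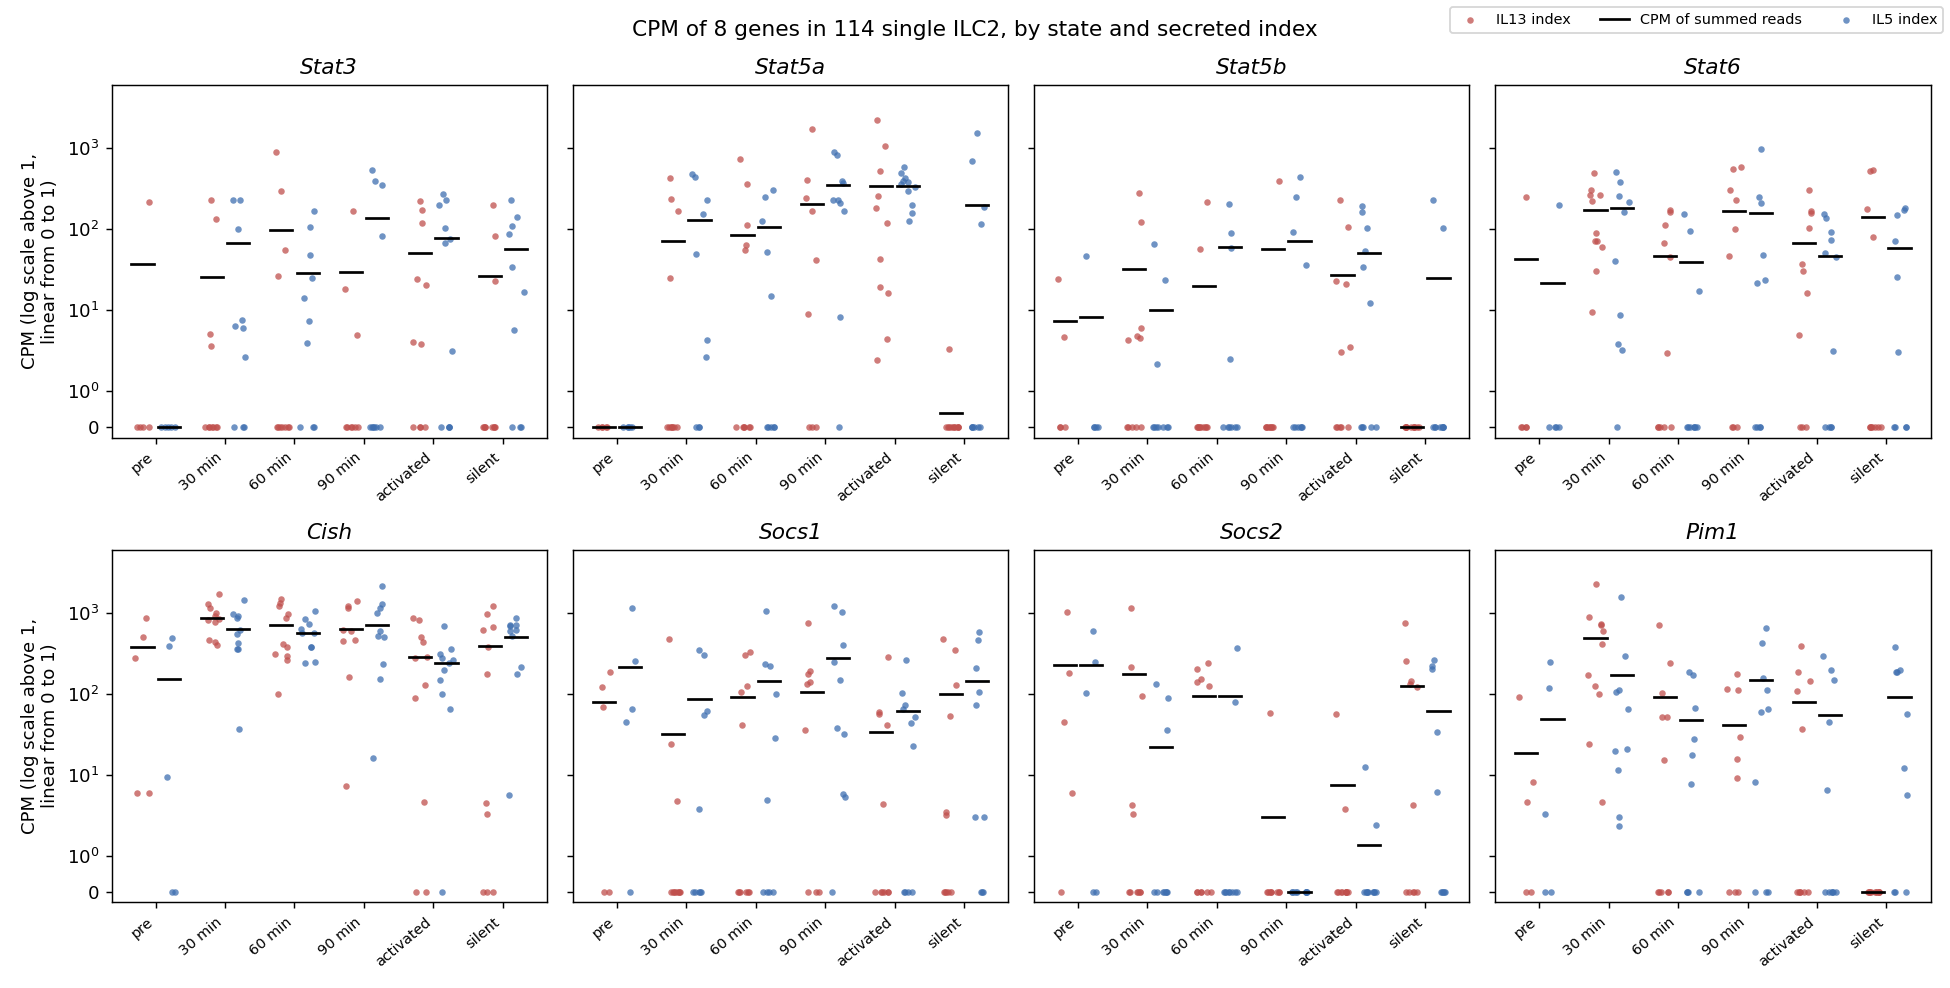
CPM of 8 genes (panels) in the 114 cells of normal depth by state (x axis), red for the IL13 index and blue for the IL5 index. Each point is 1 cell, black bars are the CPM of the summed reads of the group, and the y axis is logarithmic above 1 CPM. Stat5a is at 0 in all 10 pre-stimulation cells and above 0 in all 22 activated cells, and Pim1 is at 0 in all 11 silent cells of the IL13 index.

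Stat5a (ENSMUSG00000004043, chr11:100859351-100885169, plus strand) had no read in any pre-stimulation cell and was read in every activated cell. With Stat5b it carries the IL-2 signal. In IL13 cells its level was 0 in the 5 pre-stimulation cells (3 reads in such a group would be 3.11 CPM), then 71.0 CPM [61.2, 81.8] at 30 min, 84.6 [74.6, 95.5] at 60 min, 203 [182, 226] at 90 min and 335 [315, 355] in activated cells. In IL5 cells it was 0 in pre-stimulation cells (3 reads would be 2.47 CPM), 129 CPM [118, 142] at 30 min, 106 [95.0, 117] at 60 min, 348 [321, 376] at 90 min and 337 [318, 356] in activated cells. The number of cells with a read was 4, 5, 8 and 11 of 11 in the IL13 index and 8, 5, 9 and 11 of 11 in the IL5 index. Without the highest cell of each group, the levels at 30, 60 and 90 min were 37.3, 40.1 and 119 CPM in the IL13 index. In IL5 cells they were 86.3, 47.1 and 283 CPM, replicate 7 holding 65.7% of the reads at 60 min.

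The activated cells of both indexes had nearly the same summed Stat5a level but not the same spread. In IL5 cells the 11 cells lay within 124 to 580 CPM (median 354). In IL13 cells they ran from 2.44 to 2200 CPM (median 118), replicate 9 alone held 42.7% of the reads, and without it the level was 205 CPM. Reads of Stat5a numbered 5 or more in 11 of 11 activated cells of the IL5 index and in 8 of 11 of the IL13 index. Against pre-stimulation cells the activated level was at least 108-fold higher (IL13) and at least 136-fold higher (IL5), taking 3 reads as the floor of the pre-stimulation group. The single cells of these groups did not overlap, which held for 1.08% of all genes compared in the IL13 index and 2.86% in the IL5 index. By title date, the activated level was 220 and 409 CPM in the IL13 index and 385 and 301 CPM in the IL5 index, so the order of the dates differed.

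Silent cells set the indexes apart for Stat5a. The IL13 silent cells held 1 Stat5a read in all, in 1 of 11 cells (0.378 CPM), and the IL5 silent cells held 612 reads in 4 of 11 cells (200 CPM [184, 216]). Of those 4 cells, replicate 6 held 43.8% of the reads, and the median cell was at 0. Without replicate 6 the level was 119 CPM. That cell, labelled silent, held 6576 CPM of Il5 and 5162 CPM of Il13. The log2 ratio of activated to silent cells, with the 1 read of the silent group taken as counted, was 9.79 (counting interval 7.31 to 15.1) in the IL13 index. In IL5 cells it was 0.75 (0.61 to 0.90), and 1.5 without replicate 6 of the silent cells. The order of the 12 Stat5a levels ran from the 90 min and activated cells of the IL5 index and the activated cells of the IL13 index, whose intervals overlapped, down to the IL13 silent cells and both pre-stimulation groups. Single cells of neighbouring groups in that order overlapped throughout.

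Stat5b (ENSMUSG00000020919, chr11:100780731-100850724, minus strand), the paralog of Stat5a, was read in fewer cells, and most of its group levels rested on a single cell. Its levels ran from 0 in the IL13 silent cells (0 of 11 cells, which allows up to 1.13 CPM) to 70.0 CPM [58.4, 83.2] in the IL5 cells at 90 min (4 of 11 cells). Pre-stimulation levels were 7.26 CPM (2 of 5 cells) and 8.25 CPM (1 of 5 cells). In 9 of the 11 groups with any read, 1 cell held 50% or more of the Stat5b reads. The activated groups had 6 of 11 cells with a read in each index, at 26.6 CPM [21.3, 32.9] in the IL13 index and 50.4 CPM [43.4, 58.1] in the IL5 index. Over the 104 stimulated cells of normal depth, 30 held reads of both Stat5 genes, 33 of Stat5a only, 4 of Stat5b only and 37 of neither. The 2 genes are alike in sequence, so reads could be split between them or set aside as not unique, which was not checked here.

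Stat3 (ENSMUSG00000004040, chr11:100885098-100939540, minus strand) showed no common course in the 2 indexes. In IL13 cells it stood at 37.3 CPM in pre-stimulation cells, where replicate 2 held all 36 reads, and between 25.4 and 97.0 CPM in the stimulated groups. The highest of these, at 60 min, was 41.9 CPM without replicate 1, and 1 cell held 50% or more of the Stat3 reads in 6 of the 11 groups with any read. In IL5 cells it was at 0 in pre-stimulation cells (0 of 5) and between 29.0 and 136 CPM in the stimulated groups, with a read in 5 to 8 of 11 cells. Against the floor of 3 reads, the IL5 level was at least 27.2-fold higher at 30 min, at least 31.3-fold higher in activated cells and at least 23.1-fold higher in silent cells. These 3 ratios share the same 5 pre-stimulation cells. Against the summed pre-stimulation cells of both indexes, their log2 values were 2.02, 2.23 and 1.79, the last under the 4-fold limit used below. On the first title date alone the log2 values were 4.76, 5.33 and 4.83, with a read in 3, 3 and 4 cells, too few for the gene to be compared by the rule given below. The 3′ ends of Stat3 and Stat5a face each other and their exons overlap by 72 bases. Since the strand setting of the read counting is not given in the sources used here, reads in those bases cannot be told apart. Both genes were read in 35 of the 104 stimulated cells, Stat3 alone in 18 and Stat5a alone in 28.

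Stat6 (ENSMUSG00000002147, chr10:127642986-127660957, plus strand), the STAT of IL-4 and IL-13 signalling, had a lower level at 60 min than at 30 and 90 min in both indexes. In IL13 cells the level at 30 min was 171 CPM [155, 187], with a read in 11 of 11 cells (9.44 to 489 CPM, median 90.0). In IL5 cells it was 179 CPM [166, 194], with a read in 9 of 11 cells (0 to 508 CPM, median 101). The level was lower at 60 min (45.7 and 39.2 CPM in the IL13 and IL5 index), and at 90 min it was 165 and 157 CPM. Without the highest cell, the levels were 140 CPM at 30 min and 106 CPM at 90 min in the IL13 index, and 130 and 93.7 CPM in the IL5 index. The log2 ratio of 90 to 30 min was -0.05 (IL13) and -0.19 (IL5) and lay between -0.69 and 0.23 (IL13) and between -0.94 and 0.27 (IL5) when 1 cell was left out. The lowest values came without replicate 11 (IL13) and replicate 1 (IL5) of the 90 min cells. On the first title date of both indexes the 90 min level was the higher one (192 against 133 CPM and 242 against 160 CPM). This dip at 60 min was present on each title date, with 67.4 and 34.8 CPM in the IL13 index and 38.6 and 39.7 CPM in the IL5 index, against 84.3 to 242 CPM for the date sets at 30 and 90 min. Cells of the 3 times overlapped, since the highest cells at 60 min were at 170 and 154 CPM. Pre-stimulation levels rested on 1 of 5 cells in each index (42.5 and 21.4 CPM). Stat6 overlaps the neighbouring gene Nab2 by 40 bases of exon, with the same limit as for Stat3.

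**Figure D2:**
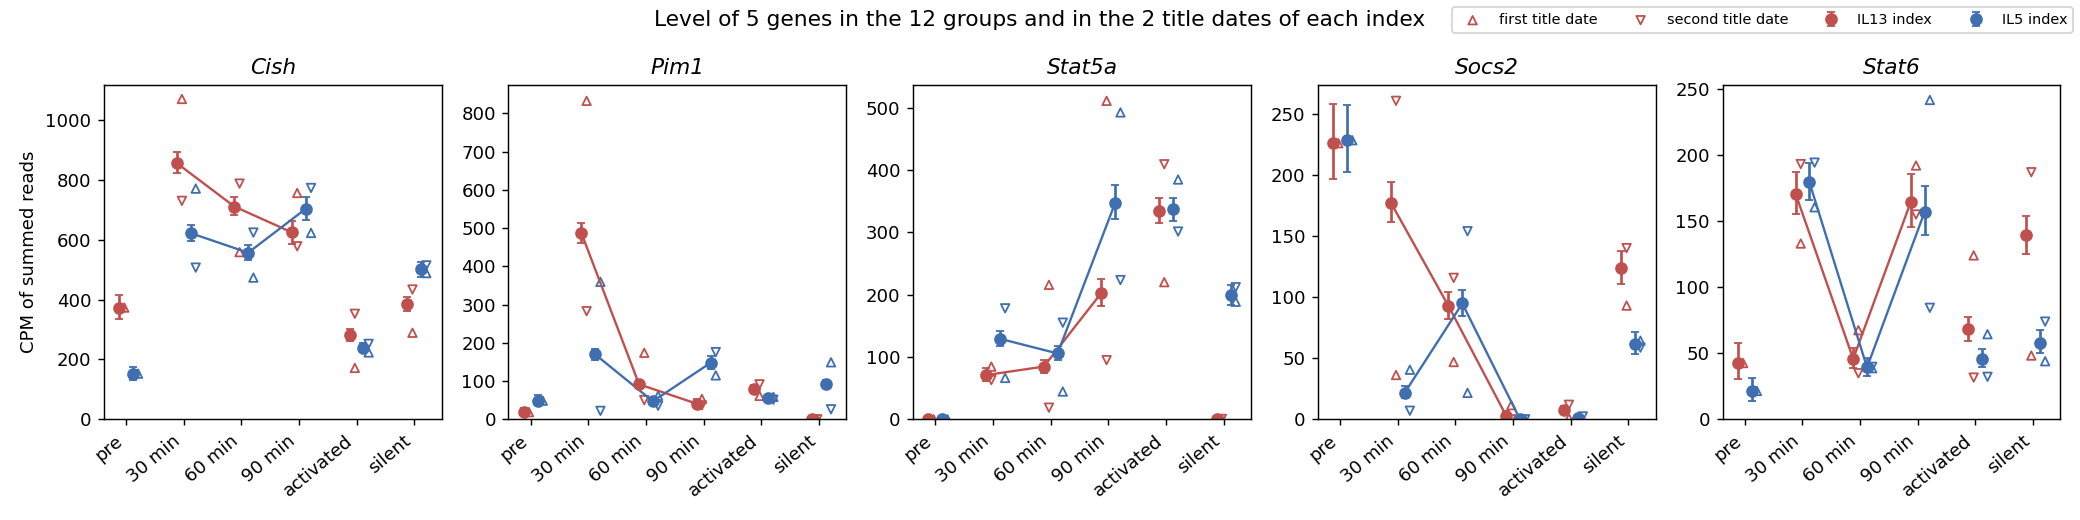
CPM of summed reads of Cish, Pim1, Stat5a, Socs2 and Stat6 by state, red for the IL13 index and blue for the IL5 index. Filled points carry the 95% Poisson interval, lines join the 3 times after onset, and open triangles give the first (up) and second (down) title date. Pim1 of the IL13 index stands highest at 30 min (487 CPM), Stat5a is highest at 90 min and in activated cells, and the summed Socs2 level is highest before stimulation (226 and 229 CPM, or 63.8 and 111 CPM without the highest cell).

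Cish (ENSMUSG00000032578, chr9:107296026-107302784, plus strand), which encodes a feedback inhibitor that binds the IL-2 receptor beta chain, was read in the most cells. It is also the member whose start carries the densest match to the STAT5 palindrome. The palindrome TTCNNNGAA, which reads the same on both strands, was searched from 250 bases before to 50 bases after the start site in the RefSeq promoters of GRCm38.p6. It was present in 8.3% of 32851 promoters, and 2 or more copies were present in 0.457%. A table entry was found for 8 of the 9 genes (11 promoters), Socs2 being the gene with none. Cish had 2 copies, at positions 1 and 12 counted from its start site and separated by 2 bases, inside an annotated Cish exon. Socs3 had 1 copy, at position -154, outside any annotated exon, and the other 6 genes had none in this window. The 2 stretches are shown because they hold all the matches found among the members, with the matches in capitals. They lie at chr9:107296655-107296682 (plus strand) and chr11:117969503-117969529 (minus strand). A match describes letters and not a bound site.
Cish: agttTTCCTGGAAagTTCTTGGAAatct
Socs3: aaaccagccTTCTTAGAAgggaggggg

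Cish was highest in the first 90 min after the onset of secretion and lower in activated cells of both indexes. In IL13 cells the level was 373 CPM [336, 414] before stimulation, 856 [822, 892] at 30 min, 711 [681, 741] at 60 min, 624 [587, 664] at 90 min, 281 [263, 300] in activated cells and 384 [361, 408] in silent cells. In IL5 cells it was 153 CPM [131, 176] before stimulation, 622 [597, 649] at 30 min, 557 [532, 582] at 60 min, 704 [666, 743] at 90 min, 240 [224, 256] in activated cells and 501 [476, 526] in silent cells. In these summed levels all 6 groups between 30 and 90 min thus stood above the other 6 groups. The median IL5 silent cell (604 CPM), however, lay above the median IL5 cells at 30, 60 and 90 min (584, 560 and 560 CPM). On the second IL5 title date the summed level was 507 CPM at 30 min and 514 CPM in silent cells. Only 3 pairs of neighbours in the order of the 12 levels had overlapping counting intervals, but the single cells of all neighbouring pairs overlapped.

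Pre-stimulation cells were divided for Cish. In IL13 cells the 5 cells were at 508, 5.93, 273, 5.93 and 870 CPM, and in the IL5 index at 487, 385, 0, 0 and 9.34 CPM. At 30 min every cell of normal depth had Cish, from 396 to 1725 CPM (median 834) in the IL13 index and from 36.2 to 1433 CPM (median 584) in the IL5 index. In IL13 cells 5 of 11 of these cells lay above the highest pre-stimulation cell, and in the IL5 index 6 of 10 did. Between 30 min and activated cells the log2 ratio was 1.61 (1.49 to 1.72) in the IL13 index and 1.38 (1.26 to 1.49) in the IL5 index. It stayed between 1.45 and 1.85 (IL13) and between 1.18 and 1.65 (IL5) when any 1 cell was left out. Cish was also higher in silent than in activated cells, with a log2 ratio of activated to silent cells of -0.45 (IL13) and -1.06 (IL5), and of 10 IL5 silent cells 7 exceeded the highest IL5 pre-stimulation cell, against 1 of 11 activated cells.

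Socs1 (ENSMUSG00000038037, chr16:10782240-10785536, minus strand), whose protein blocks JAK catalytic activity directly, did not follow Cish. It was lowest at 30 min in the IL13 index, at 32.1 CPM [25.7, 39.7] with a read in 3 of 11 cells, and replicate 1 held 90.7% of those reads. It was highest in the IL5 index at 90 min, at 279 CPM [256, 305] with a read in 10 of 11 cells. Pre-stimulation levels were 79.8 CPM (3 of 5 cells) and 216 CPM (4 of 5 cells), and only 1 of the 10 stimulated groups stood above both. Replicate 1 held 58.4% of the IL5 pre-stimulation reads, and the level without it was 101 CPM, below the IL5 silent (145 CPM) and 60 min (143 CPM) cells as well as the IL13 cells at 90 min (104 CPM). From 30 to 90 min Socs1 was higher by 1.69 (1.31 to 2.08) on the log2 scale in the IL13 index and by 1.72 (1.51 to 1.93) in the IL5 index, both under the 4-fold limit used below. Without replicate 1 of the IL13 cells at 30 min the first value was 5.03, and without replicate 11 of the IL5 cells at 30 min the second was 2.59, both past that limit. Activated cells were at 33.8 and 61.4 CPM, below the silent cells at 99.7 and 145 CPM (IL13 and IL5). The IL5 title dates differed in this. Activated and silent cells were at 16.4 and 243 CPM on the first date and at 94.6 and 34.5 CPM on the second.

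Socs2 (ENSMUSG00000020027, chr10:95385362-95417180, minus strand), a feedback inhibitor best known from growth hormone signalling, had its highest summed levels in the pre-stimulation cells. The level before stimulation was 226 CPM [197, 258] in the IL13 index and 229 CPM [202, 257] in the IL5 index, and none of the 10 stimulated groups exceeded either level. The 5 pre-stimulation cells were at 44.7, 0, 1014, 5.93 and 181 CPM in the IL13 index and at 0, 245, 102, 597 and 0 CPM in the IL5 index. In IL13 cells replicate 3 held 76.6% of these reads, and the level without it was 63.8 CPM, below that of the 30 min, 60 min (92.8 CPM) and silent cells. In IL5 cells replicate 4 held 63.2%, and the level without it was 111 CPM. At 90 min it was nearly gone, with 5 reads in 1 of 11 cells (3.00 CPM) in the IL13 index and 0 of 11 cells (which allows up to 1.64 CPM) in the IL5 index. Activated cells had 24 reads in 2 of 11 cells (7.52 CPM) and 5 reads in 2 of 11 cells (1.34 CPM).

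Silent cells held Socs2 reads. It was read in 6 of 11 IL13 silent cells (124 CPM [111, 138], 0 to 756 CPM, median 4.25) and in 5 of 11 IL5 silent cells (61.7 CPM [53.2, 71.1], 0 to 259 CPM, median 3.02). Activated cells were lower than silent cells by 16.5-fold in the IL13 index (log2 ratio -4.04, -4.71 to -3.44) and by 46.0-fold in the IL5 index (-5.52, -7.16 to -4.28). When 1 cell was left out these ratios lay between -6.85 and -2.86 (without replicate 7 of the activated and replicate 11 of the silent cells, IL13) and between -6.13 and -4.73 (IL5, the latter without replicate 2 of the silent cells). Replicate 11 held 60.4% of the reads of the IL13 silent cells, whose level without it was 54.5 CPM. Cells overlapped in both indexes, since some silent cells were at 0. At 30 min the level was 177 CPM in the IL13 index, where replicate 9 held 86.5% of the reads and the level without it was 27.6 CPM, and 21.7 CPM in the IL5 index. Over both indexes, reads of Socs2 were present in 7 of 10 pre-stimulation cells, 8 of 21 cells at 30 min, 7 of 21 at 60 min, 1 of 19 at 90 min, 4 of 22 activated and 11 of 21 silent cells of normal depth. Among the 104 stimulated cells, 13 held both Socs2 and Stat5a, 18 Socs2 only, 50 Stat5a only and 23 neither. These counts mix states that differ in both genes.

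Socs3 (ENSMUSG00000053113, chr11:117966079-117970047, minus strand), the inhibitor typical of STAT3 signalling, was close to absent from the reads. The 120 cells held 31 reads, 30 of them in replicate 8 of the IL5 cells at 30 min (77.3 CPM) and 1 in replicate 8 of the IL13 activated cells. In the 10 groups with no read, 3 reads would be between 0.804 and 3.11 CPM, so any Socs3 below that level was not detectable at this depth. The palindrome shown above for Socs3 lies before the RefSeq start site used for the window but within the annotated span of the gene.

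Pim1 (ENSMUSG00000024014, chr17:29490753-29496112, plus strand) stood highest at 30 min after onset, in both indexes. In IL13 cells its level was 18.7 CPM [11.1, 29.5] before stimulation, 487 [461, 514] at 30 min, 91.4 [81.0, 103] at 60 min, 40.8 [31.7, 51.8] at 90 min, 79.5 [70.1, 90.0] in activated cells and 0 in silent cells. In IL5 cells it was 48.7 CPM [37.1, 62.8] before stimulation, 169 [156, 184] at 30 min, 47.1 [40.1, 55.0] at 60 min, 148 [131, 166] at 90 min, 54.4 [47.2, 62.4] in activated cells and 91.0 [80.6, 102] in silent cells. Every cell of normal depth at 30 min had a Pim1 read, 11 of 11 (4.56 to 2271 CPM, median 406) and 10 of 10 (2.34 to 1561 CPM, median 42.7).

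The 30 min peak of Pim1 was broader in the IL13 index. There 9 of 11 cells exceeded the highest pre-stimulation cell (91.1 CPM), replicate 2 held 34.8% of the reads and the level without it was 343 CPM. In IL5 cells 2 of 10 cells exceeded the highest pre-stimulation cell (247 CPM), replicate 4 held 60.0% of the reads and the level without it was 72.6 CPM, below the IL5 level at 90 min. The title dates differed as well, at 833 and 283 CPM in the IL13 index and at 359 and 22.0 CPM in the IL5 index, so the second IL5 date showed no Pim1 peak at 30 min. In IL13 cells both dates were lower at 90 min (53.2 and 36.5 CPM), a log2 ratio of 90 to 30 min of -3.58 (-3.95 to -3.22) that stayed between -3.98 and -3.07 when any 1 cell was left out. In IL5 cells that ratio was -0.20 (-0.41 to 0.01), and 1.02 without replicate 4 of the 30 min cells. The 2 title dates went opposite ways there. The level was 359 CPM at 30 min and 115 CPM at 90 min on the first date (log2 ratio -1.65). On the second date it was 22.0 and 176 CPM (log2 ratio 3.00).

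The silent cells of the IL13 index held no Pim1 read at all, in 0 of 11 cells, which allows up to 1.13 CPM. This was so on both title dates, while 7 of 11 silent cells of the IL5 index had a read. Activated cells of the IL13 index were at least 70.2-fold higher than those silent cells, with a read in 5 of 11 cells (0 to 392 CPM, median 0). In a comparison added after the values were seen, the 30 min cells of the IL13 index were at least 429-fold higher than the silent cells, and the single cells did not overlap, as for 0.157% of the genes compared. In IL5 cells the same log2 ratio was 0.90 (0.69 to 1.11), and -0.33 without replicate 4 of the 30 min cells.

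**Figure D3:**
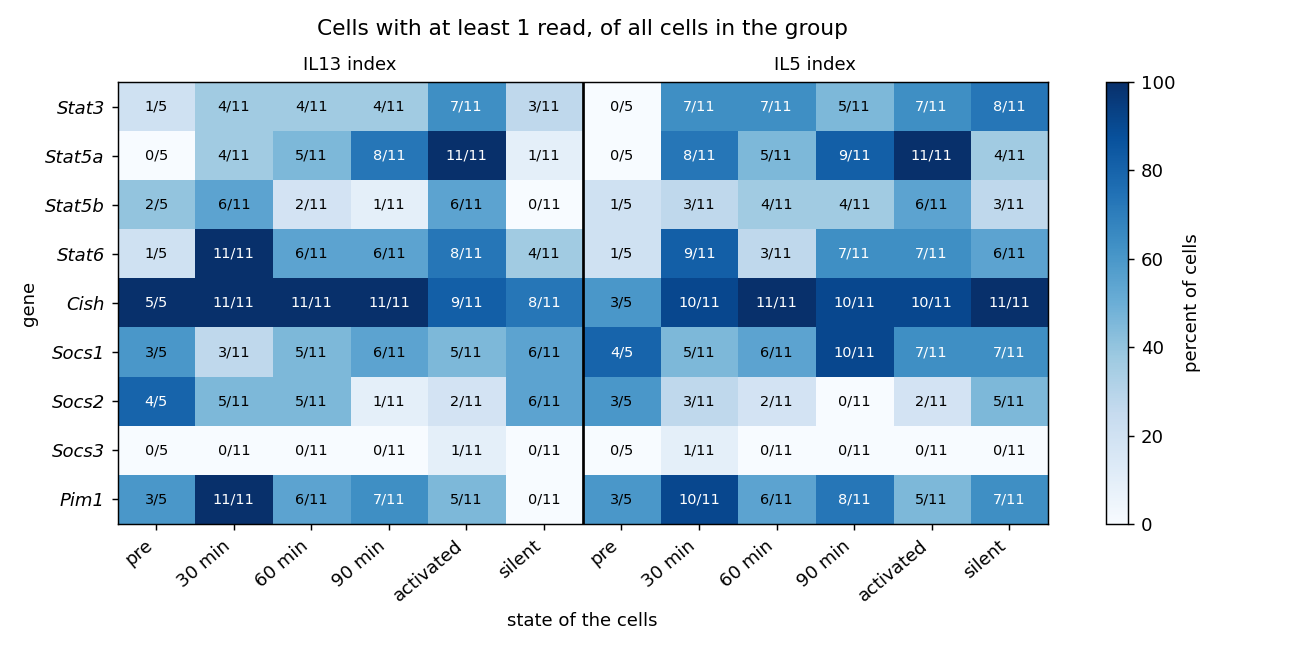
Cells with at least 1 read of each of the 9 genes (rows) in the 12 groups (columns), printed as cells with a read over all cells of the group and shaded by percent. Cish is read in most cells of every group, Stat5a goes from 0/5 before stimulation to 11/11 in activated cells of both indexes, and Socs2 is read in 0/11 to 2/11 cells at 90 min and in activated cells.

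The counts of members were set against all genes for each comparison that the design implies. A gene was compared where its mean was at least 10 CPM over both groups and more than 4 cells of both groups together held a read, and it was called where its level differed at least 4-fold. With 1 sample for each group these calls describe the groups and are no test. The pre-stimulation cells of an index serve in 3 of the comparisons, whose values are therefore not independent.

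At 30 min against pre-stimulation cells, the IL13 index had 3 of 7 compared members called higher and none lower, where 20.3% of all compared genes were higher and 7.59% lower. These were Pim1, with a log2 ratio of 4.70 (4.04 to 5.46), Stat5b with 2.13 (1.02 to 3.49) and Stat6 with 2.01 (1.54 to 2.50). Pim1 before stimulation rested on replicate 3 (83.3% of the reads, 3.75 CPM without it), and without that cell its ratio was 7.02. Without replicate 3 of the 30 min cells the Stat5b ratio was 0.74, and the Stat6 ratio lay at the limit and fell under it in 9 of 16 cases of leaving out 1 cell. In IL5 cells 4 of 7 members were called higher, where the share of all genes was 21.6%, and 1 lower, where it was 9.25%. The higher ones were Stat5a (at least 52.2-fold), Stat3 (at least 27.2-fold), Stat6 with a log2 ratio of 3.06 (2.50 to 3.69) and Cish with 2.03 (1.81 to 2.25). The Cish ratio lay at the limit and was under it in 7 of 16 cases of leaving out 1 cell. Socs2 was lower by 10.5-fold. The Cish ratio of the IL13 index was 1.20 (1.04 to 1.36), under the limit. Stat5a of the IL13 index was not compared, as only 4 cells held a read. Its level was at least 22.8-fold higher than the floor of the pre-stimulation group.

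In activated against pre-stimulation cells, Stat5a was called higher and Socs2 lower in both indexes. In IL13 cells 2 of 8 members were higher (all genes 24.6%), Stat5a and Pim1, and 1 lower (all genes 11%), Socs2, with a log2 ratio of -4.91 (-5.58 to -4.30). That Socs2 ratio was -7.71 without replicate 7 of the activated cells and -3.09 without replicate 3 of the pre-stimulation cells. The Pim1 ratio was 2.09 (1.40 to 2.87) and was 1.35 without replicate 6 of the activated cells. In IL5 cells 3 of 8 members were higher (all genes 25.7%), namely Stat5a, Stat3 and Stat5b with a log2 ratio of 2.61 (1.70 to 3.69), and 1 was lower (all genes 12.9%), Socs2 with -7.41 (-9.05 to -6.17). Cish differed by -0.41 (-0.59 to -0.23) in the IL13 index and by 0.65 (0.42 to 0.89) in the IL5 index, but without replicate 5 of the pre-stimulation cells the IL13 ratio was 0.29.

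Silent against pre-stimulation cells gave the fewest calls over both indexes together, and also had the fewest members compared. None of 4 compared members was called in the IL13 index, where 20.3% of all genes were higher and 7.35% lower. In IL5 cells 1 of 6 was higher, Stat3, and none lower, against 20.7% and 10.3% of all genes. That Stat3 call was lost with the pre-stimulation cells of both indexes (log2 ratio 1.79). On the first title date alone the ratio was 4.83, but only 4 cells held a read. Cish had a log2 ratio of 0.04 (-0.14 to 0.22) in the IL13 index and of 1.71 (1.49 to 1.94) in the IL5 index. Socs2 had ratios of -0.87 (-1.12 to -0.61) and -1.89 (-2.16 to -1.62). Without the highest pre-stimulation cell they were 0.96 (replicate 3 of the IL13 index) and -0.85 (replicate 4 of the IL5 index). Stat5a of the IL5 index, read in 4 silent cells, was at least 80.7-fold higher than the floor of the pre-stimulation group and was not compared for want of more cells with a read.

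Activated and silent cells had the same stimulus and were separated by secretion alone. In IL13 cells 3 of 8 members were called higher in activated cells (all genes 10.2%), Stat5a, Pim1 and Stat5b (at least 23.5-fold), and 1 lower (all genes 13.4%), Socs2. In IL5 cells none of 8 was higher (all genes 7.52%) and 1 was lower (all genes 8.87%), again Socs2. Without replicate 9 of the activated cells the IL13 log2 ratio of Stat5b was 3.49, and the gene was no longer called. The IL5 log2 ratio of Stat5b was 1.02 (0.63 to 1.43) and that of Pim1 -0.74 (-1.01 to -0.48). Summed over the title dates, Socs1, Cish and Stat6 were lower in activated than in silent cells in both indexes, by less than 4-fold. The log2 ratios were -1.56 and -1.24 for Socs1 and -1.03 and -0.34 for Stat6. On single title dates Cish kept that direction in both indexes and Socs1 in the IL13 index. Socs1 of the IL5 index had -3.89 on the first date and 1.45 on the second. Stat6 had 1.36 and -2.57 (IL13) and 0.55 and -1.20 (IL5). The Stat6 ratio of the IL5 index changed sign, to 0.05, when replicate 9 of the silent cells was left out.

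The cells at 30 min, compared with activated cells, had Socs2 higher in both indexes. In IL13 cells 2 of 8 members were called higher at 30 min (all genes 12.6%), Pim1 by 6.12-fold and Socs2 by 23.6-fold, and 1 lower (all genes 13.4%), Stat5a by 4.72-fold. By title date the Pim1 log2 ratio was 3.77 on the first date and 1.63, under the limit, on the second. Without replicate 9 of the 30 min cells the Socs2 log2 ratio was 1.88, and without replicate 9 of the activated cells that of Stat5a was -1.53. In IL5 cells 1 of 8 was higher (all genes 10.6%), Socs2 by 16.2-fold, and 1 lower (all genes 8.19%), Stat5b by 5.11-fold. That Socs2 call rested on 77 reads in 3 cells at 30 min against 5 reads in 2 activated cells. It held in 17 of 22 cases of leaving out 1 cell and was lost with DESeq2 size factors. On the first and second title date the Socs2 log2 ratio was 4.42 and 1.59, and neither was called. The Stat5b log2 ratio lay between -3.99 and -1.92 when 1 cell was left out, and its call was lost without replicate 5 or replicate 8 of the activated cells. The IL5 ratio of Stat6 was 1.97 (1.72 to 2.22), that of Pim1 1.64 (1.41 to 1.88) and that of Stat5a -1.38, all under the limit. Without replicate 4 of the 30 min cells the Pim1 ratio was 0.42, and on the second IL5 date Pim1 was lower at 30 min (22.0 CPM) than in activated cells (51.2 CPM).

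From 30 to 90 min after onset, Socs2 and Pim1 were lower in the IL13 index, 2 of 8 members (all genes 9.9%), by 59.1-fold and 11.9-fold, and none was higher (all genes 9.14%). Without replicate 9 of the 30 min cells the Socs2 log2 ratio was -3.20. In IL5 cells 1 of 7 was higher (all genes 8.54%), Stat5b by 7.10-fold, and none lower (all genes 6.5%). Socs2 of that index was not compared, as only 3 cells held a read, and was at least 13.2-fold lower at 90 min. On the first title date the 30 min cells had no Stat5b read and the 90 min cells 133 CPM, while on the second date the levels were 17.5 and 16.3 CPM, a log2 ratio of -0.11. Stat5a was higher at 90 min by 1.52 (1.25 to 1.78) and 1.43 (1.25 to 1.60) on the log2 scale in the IL13 and IL5 index. By title date these Stat5a values were 2.60 and 2.89 on the first date but 0.59 and 0.33 on the second. In 30 min against silent cells, the comparison added later, 3 of 8 members were higher in the IL13 index (all genes 11.1%), Pim1, Stat5a and Stat5b, and none lower (all genes 13.5%). Socs1 had a log2 ratio of -1.63 there, and of -4.97 without replicate 1 of the 30 min cells. On the first and second title date that Socs1 ratio was 0.97 and -4.98. In IL5 cells none of 8 was higher (all genes 8.46%) or lower (all genes 8.2%). On single title dates the Stat5b ratios of the IL13 index kept past the limit, at 3.16 and 3.84 for activated against silent and 4.15 and 3.21 for 30 min against silent cells (first and second date), but fell under the minimum of cells or of CPM. In IL5 cells the ratio of 30 min to activated cells was -4.97 and -1.29 on the 2 dates, and neither was called.

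**Figure D4:**
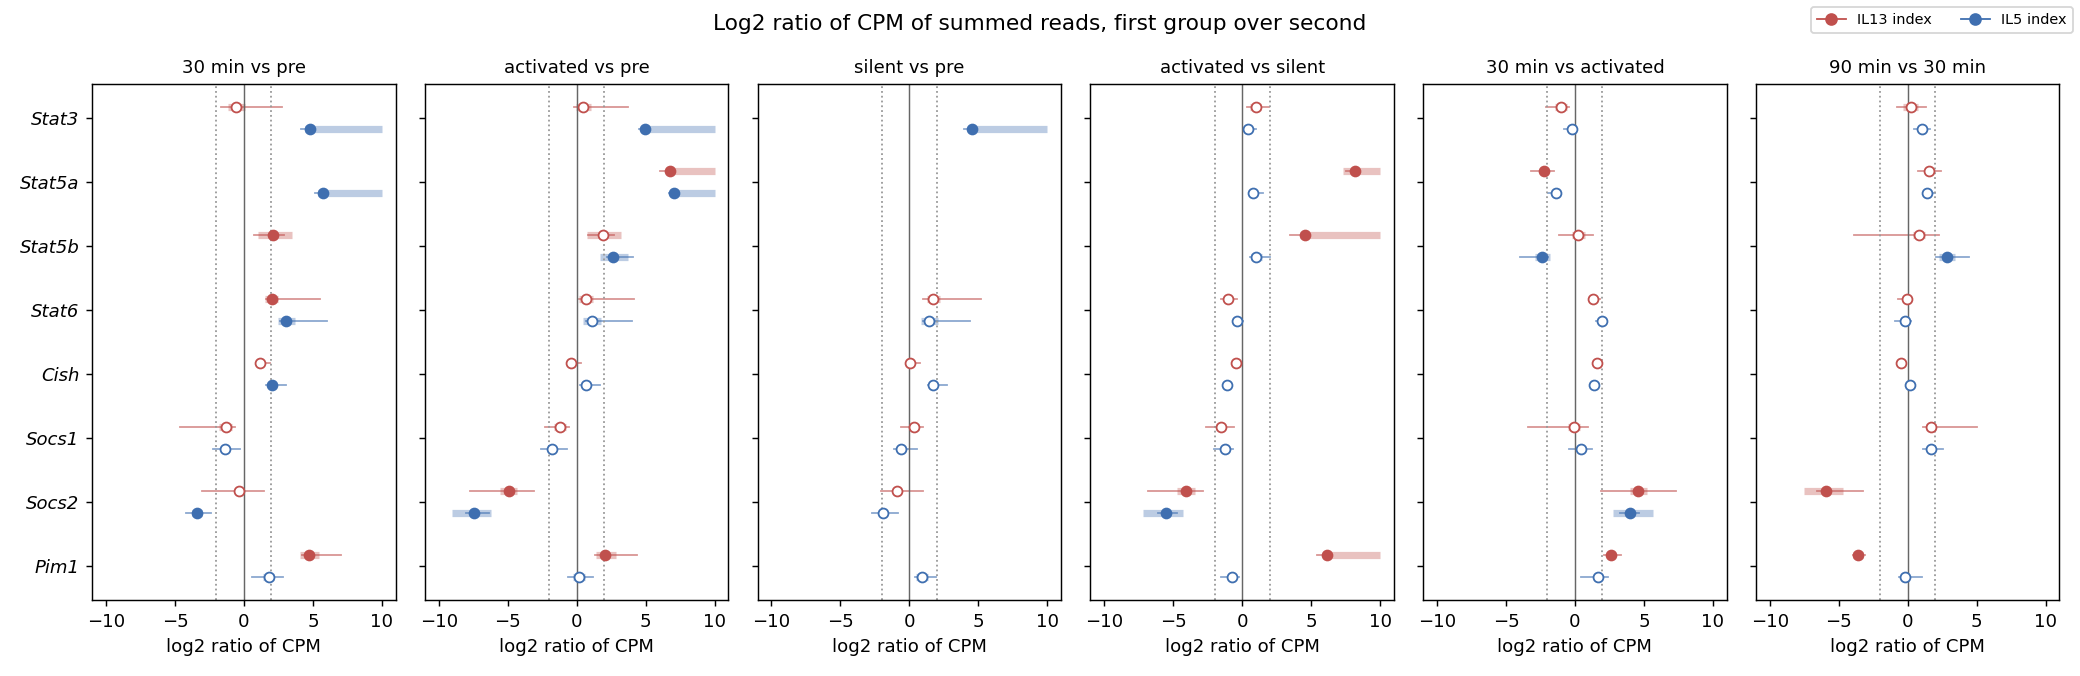
Log2 ratio of CPM, first over second group, for 8 genes (rows) in 6 comparisons (panels), red for the IL13 index and blue for the IL5 index. Filled points passed the 4-fold limit (dotted lines), thick bars are 95% counting intervals cut at 10, thin lines are the range when any 1 cell was left out, and genes not compared are blank. Socs2 lies left of the limit in both indexes for activated against pre-stimulation and for activated against silent cells, and Stat5a of the IL13 index lies far to the right in both panels.

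Other genes of the pathway were counted in 3 lists. Of 20 JAK-STAT genes (kinases, other STATs, other SOCS, PIM, phosphatases and PIAS inhibitors), 7 were compared at 30 min against pre-stimulation cells in the IL13 index, 3 higher (all genes 20.3%) and 1 lower (all genes 7.59%), with a median log2 ratio of 0.46 against 0.09 over all genes. In IL5 cells 5 were compared, 1 higher (all genes 21.6%) and none lower (all genes 9.25%), with a median of 0.48 against 0.14. Pim2, a constitutively active relative of Pim1 also known as a STAT5 target, was the one called higher in both. It was at 0 in both pre-stimulation groups (0 of 5 cells each) and at 239 CPM (10 of 11 cells) and 320 CPM (9 of 11 cells) at 30 min. Unlike Pim1 it was read in silent cells of both indexes, at 80.1 and 162 CPM (6 of 11 cells each). Jak2, a kinase of several cytokine receptors, was at 16.6 CPM before and 326 CPM at 30 min in the IL13 index, and at 133 and 229 CPM in the IL5 index.

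In activated against silent cells the JAK-STAT list had calls in the lower direction only, with 3 of 9 compared genes lower in the IL13 index (all genes 13.4%) and 4 of 10 in the IL5 index (all genes 8.87%), and medians of -1.37 and -1.23 against -0.08 and -0.07 over all genes. Stat4, the STAT of IL-12 signalling, was lower in both, at 5.32 against 27.6 CPM and at 18.2 against 151 CPM. Pias1, a SUMO ligase that restrains STATs, was lower by 3.92 and 3.01 on the log2 scale. Others, on the same scale, were Ptpn6 in the IL13 index (-3.18) and Pias2 in the IL5 index (-4.28). Against pre-stimulation cells, 2 of 8 genes of the list were higher in activated cells of the IL13 index (Pim2 and Jak2, all genes 24.6%) and 2 lower (Stat4 and Socs4, all genes 11%). In IL5 cells 2 of 7 were higher (Pim2 and Ptpn11, all genes 25.7%) and 1 lower (Stat4, all genes 12.9%).

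Of the 8 cytokine receptor genes, the IL-2 receptor alpha chain Il2ra was at 406 CPM before stimulation and at 1010, 1296, 1109, 1226 and 339 CPM at 30, 60 and 90 min and in activated and silent cells of the IL13 index. In IL5 cells these levels were 213, 2044, 1714, 3095, 2566 and 801 CPM. Silent cells thus had the lowest Il2ra of the stimulated groups in both indexes. Against pre-stimulation cells (log2 ratios in parentheses) the list had 2 of 7 genes higher at 30 min in the IL13 index, Il9r (4.72) and Crlf2 (3.51), and 1 of 5 in the IL5 index, Il2ra (3.26), with none lower, where 20.3% and 21.6% of all genes were higher. In activated cells 1 of 5 genes was higher in the IL13 index (all genes 24.6%), Crlf2 (3.23), the TSLP receptor chain. In IL5 cells 2 of 5 were higher (all genes 25.7%), Crlf2 (2.36) and Il2ra (3.59).

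The 10 STAT5 target genes include 3 for survival proteins of the BCL2 family. Bcl2l1 was at 0 in both pre-stimulation groups, at 135 and 75.2 CPM at 30 min (9 and 8 of 11 cells) and at 21.6 and 68.6 CPM in activated cells. Bcl2 was at 389 and 1023 CPM before stimulation, at 443 and 191 CPM at 30 min, at 47.3 and 67.0 CPM in activated cells and at 1096 and 272 CPM in silent cells. In pre-stimulation cells of the IL13 index 1 cell held 86.9% of the Bcl2 reads, and the level without it was 68.2 CPM, while the IL5 silent level without its highest cell was 104 CPM. Without the highest cell the 30 min levels were 258 and 41.6 CPM, the activated levels 19.3 and 22.6 CPM and the IL13 silent level 695 CPM. Mcl1, another survival protein of that family, was at 114 and 258 CPM before stimulation, at 217 and 104 CPM at 30 min and at 58.2 and 50.4 CPM in activated cells. At 30 min 2 of 6 list members were higher in the IL13 index (Bcl2l1 and Myc, all genes 20.3%) and 3 of 7 in the IL5 index (Lta, Bcl2l1 and Il2ra, all genes 21.6%), with 1 lower there (Bcl2, all genes 9.25%). In activated against silent cells none was higher in either index (all genes 10.2% and 7.52%), and Bcl2 was lower in both (all genes 13.4% and 8.87%, log2 ratios of -4.54 and -2.02).

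Over the 12 groups, the genes whose levels went most like a member's were found among 1667 or 1668 genes, as Pearson's r of log2(CPM + 10). These values describe 12 summed groups of different depth. They carry no statement on shared function or control. For Cish they were Baiap2 (0.93), Map2k3 (0.92) and Gm43305 (0.90), and for Stat5a Chordc1 (0.95), Brix1 (0.92) and Psmd2 (0.91). For Socs2 they were Hcst (0.88), Vamp8 (0.85) and Gm11478 (0.85), and for Pim1 Ssb (0.81), Slc25a3 (0.79) and Rps19bp1 (0.79). Stat3 had Cox5b (0.91), Sar1b (0.90) and Arf1 (0.88), Stat6 had Smarca5 (0.82), Srrm2 (0.77) and Ubap2l (0.76), and Socs1 had Kpnb1 (0.85), Arf5 (0.83) and Frmd4b (0.83). Between members, Stat5a and Socs2 were the most opposed pair (r = -0.82).

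Some member values rested on few reads. Libraries were pooled in sets of 5 or 6, and cells of a state and title date form 22 sets of that size or near it. Reads of 1 to 4 were seen in 16.7% of 209 member values under 100 reads where another cell of the set held 100 reads or more, and in 7.28% of 701 values where none did. Their source was not tested. With at least 5 reads required, Stat5a was seen in 19 of 22 activated cells and 0 of 10 pre-stimulation cells, Pim1 in 17 of 21 cells at 30 min, and Socs2 in 1 of 19 cells at 90 min and 1 of 22 activated cells.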

How the data were processed

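Per the labels and the study's methods, libraries were made from single cells by 3′ SMART-Seq v4 chemistry and pooled in sets of 5 or 6, without molecular identifiers. The authors aligned the reads with TopHat to GRCm38 (mm10 in the submitters' processing notes, which also list TopHat2 and a human build) and deposited HTSeq counts per gene, 1 table for each cell, with no normalization. The strand setting, annotation release and tool versions are not given in the sources used here. The tables' 5 summary lines were left out. Genes took 62.0% of the alignments, 28.7% were not unique and 1.86% ambiguous. Of 46078 identifiers, 45143 matched a symbol.

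From these counts, reads of the cells of a group were summed and scaled to CPM (Python 3.11.15, scipy 1.17.1). Log2 ratios took a group under 3 reads as 3 reads, with a Clopper-Pearson interval of the split of reads. The 4-fold limit and the minimum of more than 4 cells follow the study's methods, and the minimum of 10 CPM was added. Each comparison ran over all genes. The edgeR 4.0.16 (TMM) and DESeq2 1.42.0 factors (R 4.3.3) were used for scaling alone, as alternatives, and no model was fitted. The steps were tested on simulated data. Labels name no animal or culture, so the planned absence of a test was kept.

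All 9 members were described, the lists gave counts and up to 3 genes each way past 4-fold, and the 3 genes most like a member were named for members and genes of at least 50 CPM on average, the genes also read in at least 70% of the cells of their highest group. The members and lists were chosen with earlier results of these data known. The comparison of 30 min with silent cells, the sets by title date with low reads, and the mean over single cells without shallow cells were added after seeing the data.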

Additional observations from a re-analysis of the deposited data

Results flagged for a closer look

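Of the 13 pairs of a member and a pre-stimulation group with any read, 4 had a cell that stood apart from the other 4 cells of its group. All 4 were genes read in a single cell, which this measure of the gap always picks out, so the usual chance rate of about 1 group in 20 says nothing here. In IL13 cells Stat3 was at 213 CPM in replicate 2 and Stat6 at 249 CPM in replicate 3, with the other cells at 0. In IL5 cells Stat5b was at 46.7 CPM in replicate 5 and Stat6 at 195 CPM in replicate 1, with the other cells at 0. Every ratio of these genes to the pre-stimulation group of that index rests on that cell. Without it, the log2 ratio of Stat3 at 30 min in the IL13 index was 2.75 in place of -0.56, and those of Stat6 at 30 min were 5.51 in place of 2.01 (IL13) and 6.01 in place of 3.06 (IL5). No member had every cell of a state on one side of the reference level in the IL13 index and on the other side in the IL5 index, over 63 combinations of member and comparison.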

How the results depend on the processing

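Of 32 called member values, 19 stayed called when any 1 cell was left out, 9 under every other alternative and 8 under both. These 8 were Pim1 at 30 min against pre-stimulation cells, Pim1 at 90 against 30 min and Pim1 at 30 min against silent cells (all IL13), Socs2 at 30 min against pre-stimulation cells (IL5) and in activated against pre-stimulation cells (IL13), Stat5a in activated against pre-stimulation cells (both indexes) and Stat5a in activated against silent cells (IL13). Single dates hold fewer cells, so members also drop out through the minimum of more than 4 cells. Leaving out 1 cell can likewise cost a call through the minimum of cells or of CPM. Socs2 in activated against pre-stimulation cells of the IL5 index was called in 11 of 16 such cases. Its log2 ratio stayed between -8.02 and -6.37. The 1 value that changed sign was Stat5b at 90 against 30 min in the IL5 index, at -0.11 on the second title date. The cause of the other changes was not tested.

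Counts of called members are given for the IL13 index unless IL5 is named. With a 2-fold limit they were 5 for 30 min against pre, 5 for activated against pre, 1 for silent against pre, 6 for 30 min against activated, 4 for 90 against 30 min and 5 for 30 min against silent. In IL5 cells that limit gave 4 for silent against pre, 4 for activated against silent, 6 for 30 min against activated, 4 for 90 against 30 min and 3 for 30 min against silent. With a 50 CPM minimum the counts were 2 for activated against silent and 1 for 30 min against silent, and in the IL5 index 2 for activated against pre and 0 for silent against pre, activated against silent, 30 min against activated and 90 against 30 min. The first title date alone gave 1 for activated against silent and 1 for 30 min against silent, and in the IL5 index 2 for activated against pre and 0 for silent against pre. The second date alone gave 2 for activated against silent and 1 for 90 against 30 min, and in the IL5 index 0 for activated against silent and 1 for 30 min against activated. Pre-stimulation cells of both indexes gave 2 for silent against pre, and 0 in the IL5 index. For the IL5 index, TMM factors gave 2 for silent against pre, DESeq2 size factors 1 for 30 min against activated, and the mean CPM of single cells 3 for 90 against 30 min (2 without shallow cells) and 2 for 30 min against silent.

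With each cell left out in turn, the counts for the IL13 and IL5 index were 1 to 4 and 4 to 6 for 30 min against pre, 2 to 4 and 3 to 5 for activated against pre, 0 to 1 and 1 to 4 for silent against pre, 3 to 4 and 1 to 2 for activated against silent, 2 to 5 and 1 to 4 for 30 min against activated, 2 to 3 and 1 to 2 for 90 against 30 min, and 1 to 4 and 0 to 1 for 30 min against silent. No paired analysis was possible because replicate numbers were given in accession order and match no cell of one group to a cell of another. Numbers 1 to 5 carry the first title date of an index and 6 to 11 the second, which the single dates above cover. Pre-stimulation groups of 5 cells and 964383 and 1212183 reads limit every ratio to them, and members under about 3 CPM there were not detectable.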
